A study of Homo sapiens with 9 samples.

Results

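Molecular chaperones bind unfolded or partly folded proteins and help them fold, assemble, cross membranes or be degraded. The set described here holds the protein-coding genes whose symbols begin with HSPA, HSPB, HSP90, HSPD1, HSPE1, HSPH1 or DNAJ, or with CCT and a digit from 2 to 8, in the authors' comparison tables. It came to 79 genes with 78 symbols, of 58735 genes counted. A filter on low counts kept 71 of the 79, of 14975 genes kept in all. By name they fell into 3 HSP90 genes, 15 HSP70 genes, 1 HSP110 gene, 3 genes of the HSP60 and HSP10 class, 8 CCT genes, 4 DNAJA, 11 DNAJB and 27 DNAJC genes, and 7 genes beginning with HSPB. The HSPB prefix takes in HSPBP1, HSPBAP1 and HSPB11, which are not small heat shock proteins.

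RNA was sequenced from THP-1, a line of human acute myeloid leukaemia cells that carries the MLL-AF9 fusion. All cells received lentivirus packaged in 293T cells and were placed under puromycin from 24 hours, and RNA was taken at 48 hours. The groups were cells with the NFATC2 shRNA construct-1 (shRNA-143), cells with construct-2 against the same gene (shRNA-146), and cells with the non-targeting shRNA SHX2 (control), with 3 libraries of polyadenylated RNA each, numbered 1 to 3. NFATC2 encodes a transcription factor that calcineurin activates. The series calls the replicates biological without saying whether each is a culture of its own, so p-values measure the spread between these libraries. The model is 1 cell line at 1 time, with each shRNA as a separate construct and a single control construct.

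The HSP70 proteins bind exposed hydrophobic stretches in an ATP-driven cycle. J proteins (DNAJ) bring them substrates and start ATP hydrolysis, and HSP110 proteins release the nucleotide. HSP90 acts later, on kinases, steroid receptors and other near-native clients, and the TRiC/CCT ring folds actin, tubulin and other proteins inside a closed chamber. HSP60 with its lid HSP10 does similar work in mitochondria. In heat-stressed cells, the transcription factor HSF1 binds heat shock elements in the promoters of many of these genes, and unfolded protein in the endoplasmic reticulum (ER) raises the ER-resident ones through ER stress elements.

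The promoters of the genes on which the results turn most are given first, for HSP90AB1, CCT2, CCT4 and DNAJC19, with HSPA1A and HSPA5 beside them as textbook genes of the heat shock and ER stress responses. Each is the 300 bases from 250 before to 50 after the start that RefSeq gives, in build GRCh38.p14. Capitals mark a heat shock element, searched as GAANNTTC or TTCNNGAA on both strands, or the ER stress element, searched as CCAAT and CCACG with any 9 bases between them, on both strands. The ER stress element contains a CCAAT box, a motif that is also found on its own.
HSP90AB1, chr6:44245944-44246243, plus strand: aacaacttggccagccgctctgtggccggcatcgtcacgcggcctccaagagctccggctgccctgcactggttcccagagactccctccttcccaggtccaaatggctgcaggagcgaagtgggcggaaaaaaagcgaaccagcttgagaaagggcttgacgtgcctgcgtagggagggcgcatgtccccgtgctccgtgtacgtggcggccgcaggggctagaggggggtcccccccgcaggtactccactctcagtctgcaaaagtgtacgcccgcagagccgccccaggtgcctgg
CCT2, chr12:69585209-69585508, plus strand: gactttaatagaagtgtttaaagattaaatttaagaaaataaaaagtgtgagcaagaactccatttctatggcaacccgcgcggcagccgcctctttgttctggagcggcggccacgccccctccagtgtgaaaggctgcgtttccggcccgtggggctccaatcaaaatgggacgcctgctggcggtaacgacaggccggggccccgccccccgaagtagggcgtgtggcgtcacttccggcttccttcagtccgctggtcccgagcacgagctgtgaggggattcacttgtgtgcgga
CCT4, chr2:61888607-61888906, minus strand: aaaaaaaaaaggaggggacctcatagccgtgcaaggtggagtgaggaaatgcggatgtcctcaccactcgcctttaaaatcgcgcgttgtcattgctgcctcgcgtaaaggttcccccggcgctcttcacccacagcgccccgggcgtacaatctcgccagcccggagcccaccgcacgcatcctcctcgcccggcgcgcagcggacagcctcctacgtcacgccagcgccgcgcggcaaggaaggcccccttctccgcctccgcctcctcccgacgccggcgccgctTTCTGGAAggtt
DNAJC19, chr3:180989725-180990024, minus strand: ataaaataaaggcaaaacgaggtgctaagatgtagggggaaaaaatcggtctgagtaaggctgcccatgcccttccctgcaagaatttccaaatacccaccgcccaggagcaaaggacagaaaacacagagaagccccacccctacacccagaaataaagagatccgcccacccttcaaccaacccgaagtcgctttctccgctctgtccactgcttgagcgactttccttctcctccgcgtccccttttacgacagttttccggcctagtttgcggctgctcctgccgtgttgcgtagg
HSPA1A, chr6:31815293-31815592, plus strand: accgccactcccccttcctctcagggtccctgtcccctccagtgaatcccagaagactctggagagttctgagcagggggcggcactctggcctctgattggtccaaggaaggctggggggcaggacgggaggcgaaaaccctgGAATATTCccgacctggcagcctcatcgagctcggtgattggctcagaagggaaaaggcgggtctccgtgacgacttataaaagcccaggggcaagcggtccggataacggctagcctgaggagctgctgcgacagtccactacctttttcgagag
HSPA5, chr9:125241294-125241593, minus strand: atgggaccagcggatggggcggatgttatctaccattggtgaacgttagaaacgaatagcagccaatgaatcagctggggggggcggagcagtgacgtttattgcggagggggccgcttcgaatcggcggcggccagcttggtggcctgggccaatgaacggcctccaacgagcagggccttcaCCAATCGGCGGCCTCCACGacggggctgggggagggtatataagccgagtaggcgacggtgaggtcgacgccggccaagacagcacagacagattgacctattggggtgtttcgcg
Neither element was found in the windows of HSP90AB1, CCT2 and DNAJC19. CCT4 had 1 heat shock element, first base at +39. HSPA1A had 1 at -106, and HSPA5 had the ER stress element at -66. Of 70 chaperone promoters matched by symbol, 14 (20%) held a heat shock element, against 2577 of 22199 protein-coding promoters (11.6%). The HSP70 genes held 6 of those, in 12 windows, and the HSP90 genes none in 3. HSPA5 and HSP90B1 were the 2 chaperones (2.86%) with the ER stress element, against 0.104% of all promoters. These are matches of letters and not evidence of binding.

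Library totals were 40047459 to 44669709 counts. NFATC2 had 1.49, 7.40 and 6.95 CPM in shRNA-143 libraries 1, 2 and 3, 2.59, 6.71 and 9.43 CPM in shRNA-146, and 12.7, 27.6 and 27.4 CPM in control (CPM, counts scaled to a common library size with TMM factors). Neither shRNA group overlapped the control, and with the replicate number as a block NFATC2 fell by 2.27 ± 0.24 with shRNA-143 and by 1.96 ± 0.23 with shRNA-146 (log2, ± SE; edgeR quasi-likelihood test, adjusted p = 0.00168 and 0.00435), but not past the threshold without the block (adjusted p = 0.497 and 0.464). Libraries of the same number deviated together across genes, with r of 0.25 to 0.76 in all 9 same-number pairs, so values are given with the replicate block and without it. The 18 other pairs ran from -0.68 to 0.54, so the ranges overlap. For shRNA-143 replicate 3, r was 0.33 with control replicate 3 and 0.45 with control replicate 2. For shRNA-146 replicate 3 these values were 0.25 and 0.52, so the match to control is least clear for number 3. All 9 monocytic and myeloid marker genes averaged 1 CPM or more over the libraries, the lowest of them CD14 with a range of 0.961 to 4.04 CPM. The library shRNA-146 replicate 1 stood apart, with the fewest genes with a count (18485, where the most was 21723). It also had the lowest CEBPA (68.7 CPM, highest library 284.5) and SPI1 (89.3 CPM, highest library 317.8). Among markers of other cells, COL1A1 averaged 1.84 CPM over the libraries, and CD3D, CD3E, MS4A1, KRT19 and COL3A1 had no count in any library.

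The constitutive cytosolic chaperones dominated. Genes were compared on the authors' FPKM scale, which is per base of the deposited gene length. That length is 21835 bases for DNAJC10, for example (4.74 FPKM at 105 CPM), and whether expressed transcripts reach it was not tested. HSP90AB1 led with a mean of 932.8 over the 9 libraries, followed by the constitutive HSP70 HSPA8 at 824.2 FPKM. By mean CPM the order was reversed, with HSPA8 at 4055 and HSP90AB1 at 2825. In the shRNA-143 group HSPA8 was also higher on the FPKM scale (778.1 against 573.5). Next by mean FPKM over the 9 libraries came the small heat shock protein HSPB1 at 403.0, mitochondrial HSP60 (HSPD1) at 378.4 and the inducible HSP90 HSP90AA1 at 331.2 FPKM. 7 of the 8 CCT subunits lay between 105 and 255 FPKM, CCT5 lowest and CCT3 highest, while the testis subunit CCT6B was at 0.147 FPKM. The J proteins were led by DNAJA1, a cytosolic partner of HSP70, at 125 FPKM. Stress-inducible HSP70 was low, with HSPA1B at 9.65 FPKM. In all, 15 members reached 100 FPKM, 35 reached 10 and 59 reached 1, and 20 stayed below 1. HSPA1A and HSPA1B are near-identical, and the 2 gene IDs named HSPA14 overlap, so reads may be split between the copies.

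**Figure D1:**
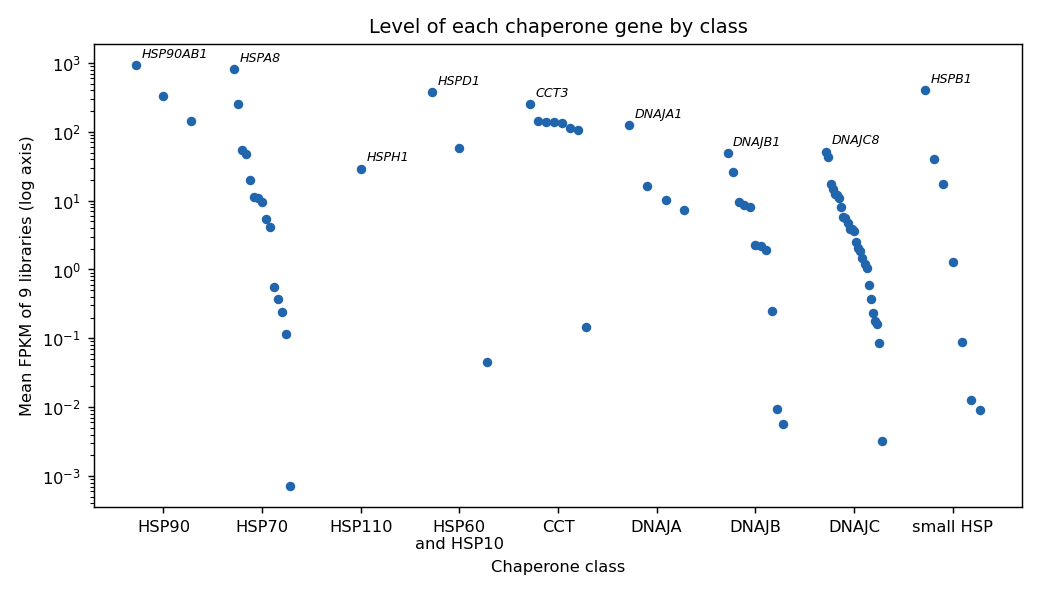
Mean deposited FPKM of each of the 79 chaperone genes over the 9 libraries, on a log axis, by class and in falling order within a class, with the highest gene of each class named. HSP90AB1 (932.8 FPKM) and HSPA8 (824.2 FPKM) stand at the top, and 7 of the 8 CCT genes lie between 105 and 255 FPKM.

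Most chaperone genes did not pass the threshold in any comparison. Without the replicate block, 0 of 71 passed an adjusted p of 0.05 with shRNA-143 (all genes 0.0467%), with shRNA-146 (0.0334%), for the mean of both shRNAs (0.0334%) or between the shRNAs (0.0467%); 4, 6, 6 and 3 had an unadjusted p under 0.05 in those 4 comparisons (all genes 6.8%, 8.81%, 9.34% and 3.75%). Without the block DESeq2 called 2, 0, 1 and 1 of the 71, and limma-voom none. The share of all genes that DESeq2 called was not counted, so its counts here and for the lists below cannot be set against it. With the block in edgeR, HSP90AB1, CCT2, CCT4 and DNAJC30 fell with shRNA-143 and none rose, 4 of 71 against 3.17% of all genes (1.57% lower, 1.6% higher). With shRNA-146, DNAJC19 fell and DNAJB4 rose, 2 of 71 against 4.42% of all genes (1.96% lower, 2.46% higher). The mean of both shRNAs gave 4, with HSP90AB1, DNAJC19 and DNAJC30 lower and DNAJB4 higher, against 5.74% of all genes (2.75% lower, 2.98% higher). Only HSP90AB1 passed between the shRNAs with the block, higher with shRNA-146 (all genes 1.2%, of them 0.775% higher and 0.421% lower). The median log2 fold change of the 71 with the block was -0.05 with shRNA-143, where it was 0.00 over all genes, and -0.01 with shRNA-146, where it was 0.02 over all genes. Both shRNA comparisons use the same 3 control libraries, and fewer transcripts per cell cannot be told apart from a changed mix of cells in bulk RNA.

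**Figure D2:**
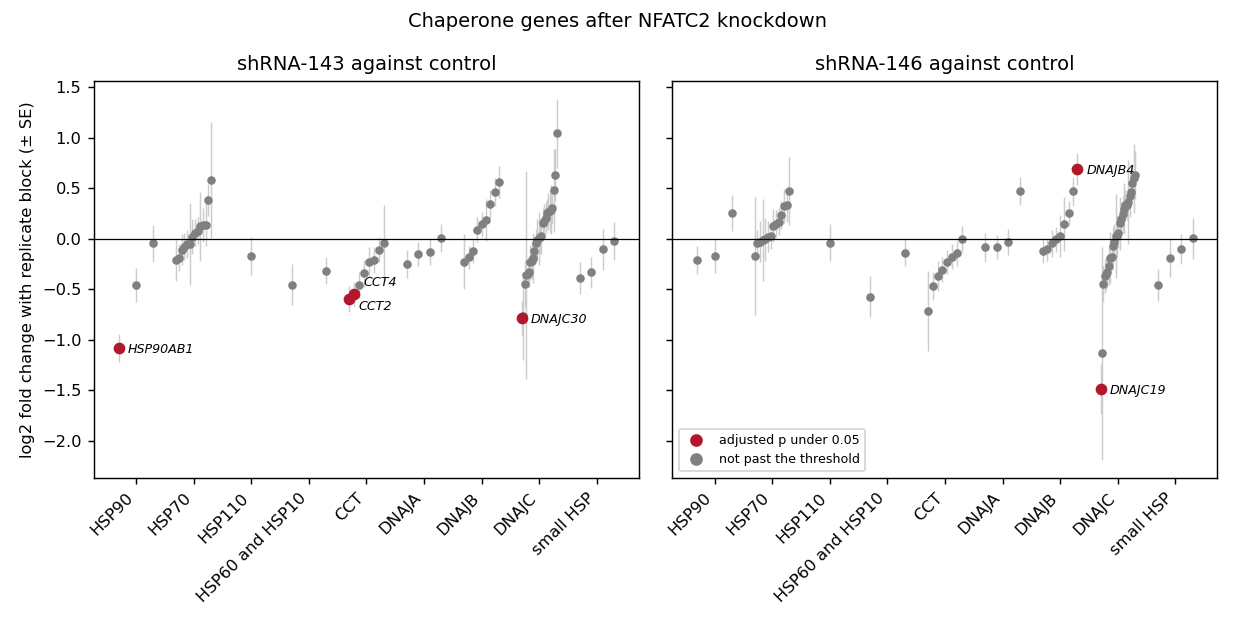
log2 fold change with the replicate block (± SE) of the 71 tested chaperone genes by class, shRNA-143 against control on the left and shRNA-146 against control on the right, with red points at an adjusted p under 0.05. HSP90AB1, CCT2, CCT4 and DNAJC30 are red on the left and DNAJB4 and DNAJC19 on the right, with DNAJC19 at -1.49.

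Among the HSP90 genes, HSP90AB1, the constitutive cytosolic isoform (chr6:44246166-44253888, plus strand, hg38), showed the clearest difference. It had 1467, 1866 and 1836 CPM with shRNA-143 in libraries 1, 2 and 3, 3197, 3047 and 3126 CPM with shRNA-146, and 3417, 3667 and 3798 CPM in control. The 3 shRNA-143 libraries lay far below the other 6, and the shRNA-146 libraries lay just below the control range. Set against the control library of the same number, HSP90AB1 stood at 42.9%, 50.9% and 48.3% for shRNA-143 and 93.6%, 83.1% and 82.3% for shRNA-146. With the block it fell by 1.08 ± 0.14 with shRNA-143 (adjusted p = 0.00385), against -0.21 ± 0.14 with shRNA-146 (adjusted p = 0.379), and the difference of shRNA-146 from shRNA-143 was 0.87 ± 0.14 (adjusted p = 0.0136). Without the block the first was -1.07 ± 0.19 (adjusted p = 0.150) and the difference 0.86 ± 0.19 (adjusted p = 0.371) in edgeR, while DESeq2 without the block called both (adjusted p = 3.37e-07 and 0.000217). In fits that left out 1 library, the fall with shRNA-143 passed in 9 of 9 with the block, and the difference between the shRNAs passed in 5 of 9, not without shRNA-143 replicate 1, 2 or 3 or shRNA-146 replicate 2. In the authors' deposited tables HSP90AB1 was the only chaperone past an adjusted p of 0.05 with shRNA-143 (log2 fold change -1.06, adjusted p = 0.000204; 0.583% of listed genes passed), and none passed with shRNA-146 (0.252%). Its exons overlap no other annotated gene, and its 5 annotated pseudogenes held 0.0381% as many counts.

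HSP90AA1, the heat-inducible cytosolic isoform, had 988.9, 1606 and 1903 CPM with shRNA-143, 1686, 1695 and 1969 CPM with shRNA-146, and 1828, 2053 and 2147 CPM in control. The groups overlapped, and it did not pass with the block (-0.46 ± 0.17 with shRNA-143, adjusted p = 0.156; -0.17 ± 0.17 with shRNA-146, adjusted p = 0.579). HSP90AB1 counts divided by HSP90AA1 counts, a ratio within a library that needs no scaling, were 1.48, 1.16 and 0.965 with shRNA-143, 1.90, 1.80 and 1.59 with shRNA-146, and 1.87, 1.79 and 1.77 in control. All 3 shRNA-143 ratios lay below the other 6. The exact two-sided permutation test gave p = 0.1 for shRNA-143 against control, the smallest that 3 against 3 allows (0.15 after Benjamini-Hochberg adjustment over 9 tests), and p = 0.9 for shRNA-146 against control. HSP90B1, the ER isoform GRP94, ranged from 289 to 908 CPM with shRNA-143, 521 to 987 CPM with shRNA-146 and 443 to 731 CPM in control, with library 1 lowest in each group.

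**Figure D3:**
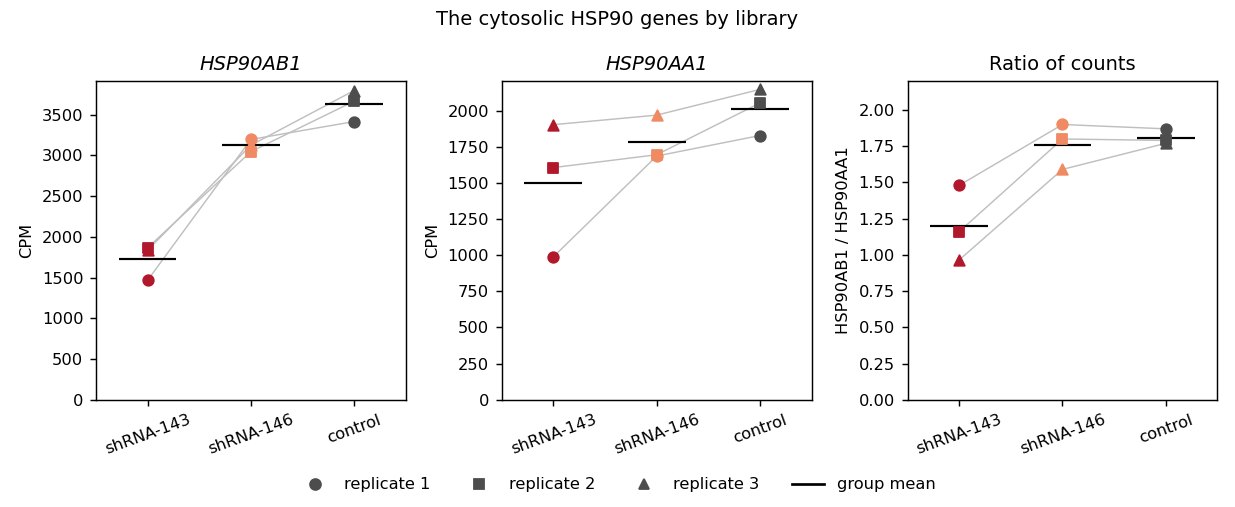
CPM of HSP90AB1 (left) and HSP90AA1 (middle) and the ratio of their counts (right) in shRNA-143, shRNA-146 and control libraries, with lines joining libraries of the same number and bars at group means. The HSP90AB1 points are at 1467 to 1866 CPM with shRNA-143, all below the shRNA-146 (3047 to 3197 CPM) and control (3417 to 3798 CPM) points, while HSP90AA1 overlaps.

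Of 41 cochaperones and regulators in a separate list, all tested, 2 fell with shRNA-143 with the block (all genes 1.57% lower and 1.6% higher) and 1 with shRNA-146 (all genes 1.96% lower and 2.46% higher), and none rose in either. CHORDC1, an HSP90 cochaperone, had 57.1, 33.6 and 35.4 CPM with shRNA-143, 104.6, 53.5 and 54.3 CPM with shRNA-146, and 90.5, 58.3 and 65.9 CPM in control. Its shRNA-143 values lay below all control values, and it fell by 0.79 ± 0.14 (adjusted p = 0.014), against -0.06 ± 0.13 with shRNA-146 (adjusted p = 0.816). The difference of shRNA-146 from shRNA-143 also passed, at 0.72 ± 0.14 (adjusted p = 0.0305). HSBP1, which binds HSF1, had 143.5, 70.4 and 79.4 CPM with shRNA-143, 139.1, 101.8 and 90.3 CPM with shRNA-146, and 211.9, 112.3 and 147.4 CPM in control. HSBP1 fell by 0.71 ± 0.15 with shRNA-143 (adjusted p = 0.0317), although the groups overlap when the numbers are not matched. With shRNA-146 it was also lower, at -0.48 ± 0.15, without passing (adjusted p = 0.0862). The mean of both shRNAs passed, at -0.596 ± 0.125 (adjusted p = 0.0249). Between the shRNAs HSBP1 did not pass (0.23 ± 0.15, adjusted p = 0.66). HSF1 itself did not pass with either shRNA (0.25 ± 0.17 with shRNA-143, adjusted p = 0.43; 0.05 ± 0.17 with shRNA-146, adjusted p = 0.903), nor did HSF2. Without the block 0 of the 41 passed in edgeR with either shRNA, where 1 and 2 had an unadjusted p under 0.05 with shRNA-143 and shRNA-146 (all genes 6.8% and 8.81%) and DESeq2 called 0 and 1, the 1 being GRPEL1.

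Of the 8 TRiC/CCT subunits, CCT2 and CCT4 fell with shRNA-143 with the block and none passed with shRNA-146. With the block 4 of 8 had an unadjusted p under 0.05 with shRNA-143 and 3 of 8 with shRNA-146, all of them lower (all genes in either direction 20.7% and 23.5%), and without the block 1 and 0 did (all genes 6.8% and 8.81%). CCT2 had 467.4, 351.0 and 350.0 CPM with shRNA-143, 700.7, 479.3 and 435.5 CPM with shRNA-146, and 673.0, 522.6 and 563.0 CPM in control. All its shRNA-143 values were below all control values, and library 1 was the highest in each group. CCT4 had 414.9, 265.3 and 284.3 CPM with shRNA-143, 505.6, 338.7 and 352.1 CPM with shRNA-146, and 567.9, 380.8 and 446.9 CPM in control, so its groups overlap unless libraries are matched by number. With the block CCT2 fell by 0.60 ± 0.13 (adjusted p = 0.035) and CCT4 by 0.54 ± 0.12 (adjusted p = 0.0372) with shRNA-143. With shRNA-146 they were at -0.15 ± 0.13 (adjusted p = 0.537) and -0.23 ± 0.12 (adjusted p = 0.277), and neither differed past the threshold between shRNA-146 and shRNA-143 (adjusted p = 0.167 and 0.358). Without the block neither passed with shRNA-143 (adjusted p = 0.672 and 0.776). Each passed with the block in 2 of 9 fits that left out 1 library, those without shRNA-146 replicate 1 or replicate 3.

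As a percentage of the control library of the same number, CCT2 stood in shRNA-143 libraries at 69.5%, 67.2% and 62.2% and CCT4 at 73.1%, 69.7% and 63.6%. CCT6A was at 82.2%, 80.7% and 74.3% with shRNA-143 and 85.9%, 73.5% and 59.8% with shRNA-146, and CCT3 at 88.6%, 92.0% and 84.9% with shRNA-146. CCT4, CCT7 and CCT8 were also below control in each shRNA-146 library. They stood at 89.0%, 88.9% and 78.8%, at 85.9%, 89.4% and 69.2%, and at 94.4%, 74.1% and 65.1%, in that order. CCT5 (115%, 97.8% and 88.0%), CCT2 (104.1%, 91.7% and 77.4%) and CCT6B (107.1%, 58.3% and 32.9%) were not below control in library 1 with shRNA-146. The log2 fold change was below 0 for 8 of 8 CCT genes with each shRNA under TMM scaling and the block, with medians of -0.29 and -0.27. CCT5 with shRNA-146 was close to 0, at -0.004 ± 0.13 with the block and 0.02 without it. Scaling by library size alone, which moved the median of all genes with the block to 0.10 with shRNA-143 and 0.16 with shRNA-146, left the CCT medians at -0.19 and -0.13, with 7 of 8 below 0 in each. TCP1, the CCT1 subunit that the name rule leaves out, did not pass (-0.16 ± 0.14 and -0.18 ± 0.14, adjusted p = 0.562 and 0.471). The 8 CCT genes together took 0.376 ± 0.006% of a library's counts with shRNA-143 (SD, n = 3 in each group). Their share was 0.409 ± 0.027% with shRNA-146 and 0.436 ± 0.025% in control. For shRNA-143 against control the exact permutation test gave p = 0.1, the smallest possible (0.15 after Benjamini-Hochberg adjustment over 9 tests). For shRNA-146 against control the exact permutation test gave p = 0.3 (0.386 after that adjustment). The permutation test did not match libraries by number, and the summed share includes CCT2 and CCT4, which were called in the same data. It therefore cannot decide whether the class as a whole changed, and no conclusion is drawn from it. Exons of CCT4 overlap COMMD1 on the other strand (18.6 CPM against 395 CPM for CCT4), and no source used here says whether reads were counted by strand.

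**Figure D4:**
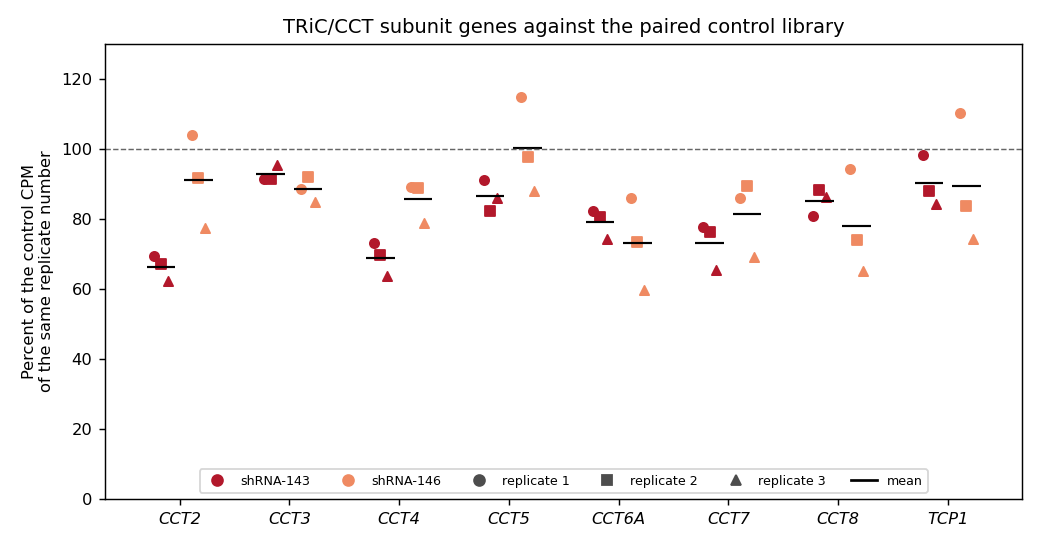
CPM of 7 CCT genes and TCP1 in each shRNA library as a percentage of the control library of the same number, with bars at the mean of 3 and a dashed line at 100%; CCT6B, at under 1 CPM, is not drawn. With shRNA-143, CCT2 lies between 62.2% and 69.5% and CCT4 between 63.6% and 73.1%, and with shRNA-146 CCT2 spans 77.4% to 104.1%.

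The largest change among the chaperones with shRNA-146 was in a J protein of the mitochondrial inner membrane, DNAJC19, which is known as a part of the motor that pulls proteins into the matrix. DNAJC19 had 60.9, 38.7 and 44.7 CPM with shRNA-143, 43.6, 17.7 and 14.2 CPM with shRNA-146, and 73.1, 48.2 and 72.2 CPM in control. The 3 shRNA-146 values lay below all control values, and at 59.7%, 36.7% and 19.7% of the control library of the same number. With the block it fell by 1.49 ± 0.25 with shRNA-146 (adjusted p = 0.0119), against -0.44 ± 0.24 with shRNA-143 (adjusted p = 0.323), and the difference between the shRNAs was -1.04 ± 0.24 (adjusted p = 0.0824). Without the block the change with shRNA-146 was -1.36 ± 0.41 (adjusted p = 0.426). It passed with the block in 6 of 9 fits that left out 1 library, not without shRNA-146 replicate 2 or control replicate 2 or 3.

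GRPEL1, the nucleotide exchange factor of mitochondrial HSP70 and the cochaperone that fell with shRNA-146, had 98.7, 72.7 and 74.0 CPM with shRNA-143, 59.1, 45.6 and 42.8 CPM with shRNA-146, and 120.0, 89.8 and 93.2 CPM in control. Its shRNA-146 values lay below the other 6. It fell by 1.04 ± 0.12 with shRNA-146 (adjusted p = 0.0038) and was at -0.31 ± 0.12 with shRNA-143 (adjusted p = 0.176), and the difference of shRNA-146 from shRNA-143 passed, at -0.73 ± 0.12 (adjusted p = 0.0148). The mitochondrial HSP70 that both serve, HSPA9, was at -0.04 ± 0.13 with shRNA-146 (adjusted p = 0.895). Without the block the fall of GRPEL1 with shRNA-146 did not pass in edgeR (adjusted p = 0.217) and did in DESeq2 (adjusted p = 0.00563).

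Of 9 mitochondrial chaperone genes, the blocked fit had 1 that fell for shRNA-143 (all genes 1.57% lower) and 1 for shRNA-146 (all genes 1.96% lower). The first was DNAJC30, a mitochondrial J protein, with 3.67, 3.69 and 3.93 CPM with shRNA-143, 4.59, 4.94 and 5.54 CPM with shRNA-146, and 6.60, 5.84 and 7.02 CPM in control. The 3 groups did not overlap, in that order. It fell by 0.78 ± 0.17 with shRNA-143 (adjusted p = 0.0372; without the block 0.364 in edgeR and 0.0203 in DESeq2), and was at -0.37 ± 0.17 with shRNA-146 (adjusted p = 0.221). The call with the block was lost in 7 of 9 fits that left out 1 library, all but those without shRNA-146 replicate 1 or 3, and with library size scaling (adjusted p = 0.0766). Exons of DNAJC30 overlap BUD23 on the other strand, which stood at 232 CPM, so reads of the pair may not be told apart. HSPD1 had 1394, 1418 and 1539 CPM with shRNA-143, 1803, 1608 and 1507 CPM with shRNA-146, and 1761, 1798 and 1852 CPM in control. Its shRNA-143 values lay below the control values, but the change of -0.32 ± 0.13 did not pass with the block (adjusted p = 0.215). HSPE1, the HSP10 lid, which shares exon sequence with HSPD1 on the other strand, was at -0.45 ± 0.20 and -0.57 ± 0.20 with shRNA-143 and shRNA-146 (adjusted p = 0.229 and 0.122).

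Among the cytosolic J proteins, DNAJB4 was the one that rose with the block. It had 13.6, 6.57 and 7.34 CPM with shRNA-143, 15.5, 6.26 and 8.74 CPM with shRNA-146, and 9.10, 4.61 and 4.82 CPM in control. Library 1 was the highest in every group, and the groups overlap unless matched by number. As a percentage of the matched control library, DNAJB4 stood at 149.0%, 142.5% and 152.4% for shRNA-143 and 169.8%, 135.7% and 181.4% for shRNA-146. It rose by 0.69 ± 0.16 with shRNA-146 (adjusted p = 0.04; 0.691 without the block) and by 0.63 ± 0.14 for the mean of both (adjusted p = 0.0329), and was at 0.56 ± 0.16 with shRNA-143 (adjusted p = 0.0889). The call with shRNA-146 was kept in 1 of 9 fits that left out 1 library, the one without shRNA-146 replicate 1.

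**Figure D5:**
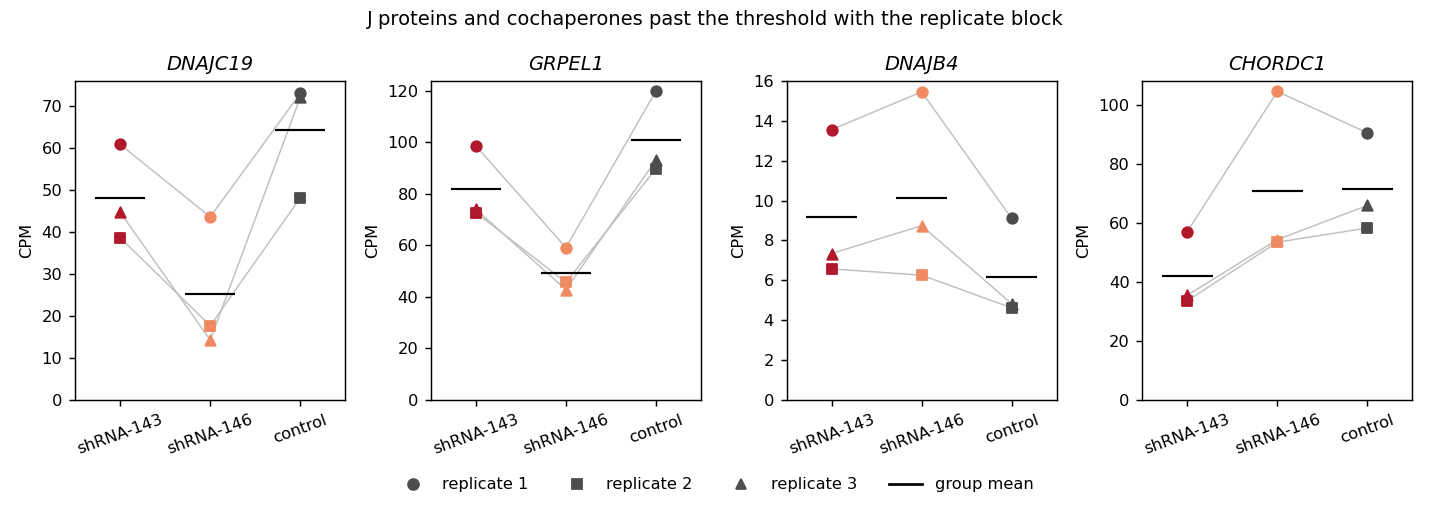
CPM of the J protein genes DNAJC19 and DNAJB4 and the cochaperone genes GRPEL1 and CHORDC1 in shRNA-143, shRNA-146 and control libraries, with lines joining libraries of the same number and bars at group means. DNAJC19 and GRPEL1 are lowest with shRNA-146 (14.2 to 43.6 and 42.8 to 59.1 CPM), CHORDC1 is lowest with shRNA-143 (33.6 to 57.1 CPM), and library 1 is the highest in every DNAJB4 group.

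DNAJA4, a cytosolic J protein, had 40.4, 40.4 and 48.2 CPM with shRNA-143, 58.7, 54.0 and 65.6 CPM with shRNA-146, and 40.0, 46.6 and 41.5 CPM in control. All shRNA-146 values lay above the other 6, but with the block the 0.47 ± 0.14 against control did not pass (adjusted p = 0.0757), and it did with library size scaling (0.61, adjusted p = 0.0496). Library size scaling also moved the median of all genes with shRNA-146 from 0.02 to 0.16 in the blocked fit. DNAJA1 and DNAJB1, the main stress-responsive J proteins of the cytosol, overlapped between groups and did not pass. For shRNA-143 they lay at -0.25 ± 0.14 and -0.18 ± 0.12, and for shRNA-146 at -0.09 ± 0.14 and -0.10 ± 0.12. DNAJC8, the highest DNAJC gene per length (mean 51.4 FPKM), ranged from 150 to 158 CPM with shRNA-143, 110 to 156 CPM with shRNA-146 and 161 to 171 CPM in control, without passing (adjusted p = 0.667 and 0.191).

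None of the 14 HSP70 genes tested passed in edgeR with either shRNA, with or without the block; with the block 1 had an unadjusted p under 0.05 with shRNA-143 and 0 with shRNA-146 (all genes 20.7% and 23.5%), and DESeq2 and limma-voom called none. HSPA8 had 4457, 3379 and 3591 CPM with shRNA-143, 6009, 3542 and 3254 CPM with shRNA-146, and 4691, 3807 and 3768 CPM in control. It was highest in library 1 of every group, and the groups overlapped (-0.11 ± 0.15 and 0.02 ± 0.15, adjusted p = 0.732 and 0.958). HSPA1A and HSPA1B, the classical inducible pair, ranged over the 9 libraries from 10.6 to 19.3 CPM and from 20.7 to 36.7 CPM. HSPA1A was at -0.21 ± 0.20 with shRNA-143 and -0.03 ± 0.20 with shRNA-146, and HSPA1B at 0.02 ± 0.17 and 0.33 ± 0.17. HSPH1, the HSP110 gene, was at -0.17 ± 0.19 and -0.04 ± 0.19. Of 12 genes listed as heat-inducible, HSP90AB1 alone passed in edgeR with shRNA-143, with the block (all genes 3.17%). None passed with shRNA-146 (all genes 4.42%), and the medians of the 12 with the block were -0.20 and -0.09. The list includes HSP90AB1 and HSPA8, both described above as constitutive, so the 1 call was of a constitutive gene. Without the block edgeR called 0 of the 12 with either shRNA. With the block 4 had an unadjusted p under 0.05 with shRNA-143 and 1 with shRNA-146, all lower (all genes in either direction 20.7% and 23.5%). DESeq2 without the block called 1 with shRNA-143, HSP90AB1, and 0 with shRNA-146, and limma-voom called none.

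None of the 8 ER chaperones passed in edgeR with either shRNA under TMM scaling, though in the blocked fit the change was above 0 for 6 of 8 (shRNA-143) and 7 of 8 (shRNA-146), with medians of 0.23 and 0.26. With the block 2 of the 8 had an unadjusted p under 0.05 with each shRNA, near the share of all genes (20.7% with shRNA-143 and 23.5% with shRNA-146), and DESeq2 and limma-voom called none. DNAJC10, a J protein with disulfide reductase activity, had 116.0, 98.0 and 99.8 CPM with shRNA-143, 172.9, 110.2 and 96.8 CPM with shRNA-146, and 82.2, 83.8 and 85.1 CPM in control. Both shRNA groups lay above the control range, with 0.31 ± 0.17 and 0.56 ± 0.17 against control (adjusted p = 0.315 and 0.0804). DNAJC3, an inhibitor of the kinase PERK, had 54.9, 74.7 and 74.4 CPM with shRNA-143, 78.1, 80.6 and 74.5 CPM with shRNA-146, and 48.3, 64.4 and 57.6 CPM in control, with 0.47 ± 0.14 for shRNA-146 (adjusted p = 0.0792). With library size scaling and the block, DNAJC10 and DNAJC3 passed with shRNA-146 (adjusted p = 0.0314 and 0.0361). That scaling moved the median of all genes with shRNA-146 from 0.02 to 0.16. The share of all genes it called was not counted, so these 2 calls are not read as a rise of ER chaperones. HSPA5 (BiP), the ER HSP70, had 595.7, 978.4 and 1126 CPM with shRNA-143, 914.1, 1142 and 1268 CPM with shRNA-146, and 768.3, 1124 and 1125 CPM in control. Its groups overlapped, library 1 was the lowest in each, and it lay at -0.19 ± 0.14 and 0.15 ± 0.14 (adjusted p = 0.473 and 0.546).

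DNAJB9 (ERdj4), an ER J protein that IRE1 signalling raises under ER stress, had 38.3, 24.1 and 23.2 CPM with shRNA-143, 31.1, 16.5 and 14.5 CPM with shRNA-146, and 30.1, 16.4 and 16.6 CPM in control. Each shRNA-143 library stood above its matched control, while the groups overlapped unmatched, and the 0.46 ± 0.14 with shRNA-143 did not pass (adjusted p = 0.0976) unless libraries numbered 1 were left out (0.53, adjusted p = 0.0322). DNAJB11 (ERdj3), which helps BiP bind its substrates, had 178.4, 134.3 and 145.9 CPM with shRNA-143, 174.4, 145.4 and 173.6 CPM with shRNA-146, and 142.9, 126.2 and 144.2 CPM in control. Its shRNA-146 values all exceeded the control values by a small margin, with 0.25 ± 0.12 in the blocked fit (adjusted p = 0.239). HSPA13, a small HSP70 relative of microsomes, and DNAJC1, an ER membrane J protein, lay at 0.39 ± 0.16 and 0.21 ± 0.16 with shRNA-143 and at 0.13 ± 0.16 and 0.33 ± 0.16 for shRNA-146.

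The other J proteins named by rule did not pass either. DNAJA2 and DNAJB6, partners of cytosolic HSP70 that act in refolding and in holding back aggregation, lay between -0.13 and -0.03 in both comparisons. DNAJA3, a J protein of the mitochondrial matrix, was at -0.15 ± 0.12 for shRNA-143 and -0.08 ± 0.12 for shRNA-146. DNAJC15, which like DNAJC19 belongs to the inner membrane import machinery, had 115.0, 62.8 and 75.8 CPM with shRNA-143, 130.6, 66.1 and 54.0 CPM with shRNA-146, and 115.2, 69.6 and 103.7 CPM in control. Its groups overlapped and it lay at -0.27 ± 0.19 for shRNA-146 (adjusted p = 0.414). DNAJC5, the cysteine string protein of secretory vesicles, was at -0.35 ± 0.13 for shRNA-143 (adjusted p = 0.163) and -0.18 ± 0.13 for shRNA-146 (adjusted p = 0.415). DNAJC11, of the mitochondrial contact site complex, ranged from 7.18 to 32.0 CPM over the 9 libraries and was at 0.63 ± 0.26 for shRNA-143 (adjusted p = 0.199). DNAJC28 was under 1 CPM in every library.

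HSPB1 (HSP27) had 885.0, 487.1 and 701.0 CPM with shRNA-143, 497.1, 532.5 and 794.3 CPM with shRNA-146, and 753.0, 504.4 and 861.2 CPM in control, with a spread within each group wider than any difference between them. HSPBP1, a nucleotide exchange factor of HSP70, ranged from 71.0 to 93.8 CPM with shRNA-143, 65.1 to 86.5 CPM with shRNA-146 and 90.4 to 116.5 CPM in control, and did not pass with shRNA-146 (-0.46 ± 0.16, adjusted p = 0.113).

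Counted without a test, 3 of the 71 genes lay wholly above and 7 wholly below control with shRNA-143, where 7.09% and 8.11% of all genes did. With shRNA-146 the counts were 7 above and 6 below, where 7.25% and 7.46% of all genes did. Between the shRNAs, 5 lay higher and 1 lower with shRNA-146 (4.49% and 3.69% of all genes). Libraries also differed by number. The log2 ratio of the mean CPM of libraries numbered 1 to that of the other 6 ran from -2.39 (DNAJC2) to 1.31 (DNAJC5B) over the 71 genes. It was at or below -0.5 in 13 and at or above 0.5 in 13, where 28.5% and 20% of all genes were. The part of the library number in these results was not tested beyond the fits with the block and those without libraries numbered 1. Without libraries numbered 1 and with the block, HSP90AB1 was at -1.01 (adjusted p = 0.00715) and CCT2 at -0.62 (adjusted p = 0.0197) with shRNA-143, and DNAJC19 at -1.89 (adjusted p = 0.00158) with shRNA-146. Values of CCT4, DNAJC30 and DNAJB4 from that fit are not given here. It rests on fewer libraries and residual degrees of freedom, and the share of all genes it called was not counted.

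The 8 genes that did not pass the filter were DNAJB7, DNAJB13, DNAJC6, HSPE1-MOB4, HSPA12A, HSPB6, HSPB7 and HSPB9, which reached at most 13 counts in a library.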

How the data were processed

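The files held raw read counts per gene for the 9 libraries as the authors deposited them, with FPKM for the same libraries, and 1 table per shRNA with the authors' normalized signal per library, log2 fold changes and p-values. Per the submitters' processing notes, fastp, STAR 2.5, featureCounts and DESeq2 were used with build hg38; their settings, strand handling and the annotation are not given in the sources used here. The deposited counts in the comparison tables equal those of the count table for all 23828 and 23854 genes listed, and gene coordinates equal those of GENCODE 29 for 79 of 79 chaperone genes. The deposited normalized signal values were not used.

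Counts were filtered with filterByExpr, scaled by TMM and fitted with edgeR 4.0.16 (R 4.3.3; robust quasi-likelihood, 3 group means over all 9 libraries, 6 residual degrees of freedom, or 4 with the replicate number as a block). P-values were adjusted by Benjamini-Hochberg over 14975 genes and called under 0.05; SE is the fold change divided by the root of F. The replicate numbers come from the sample titles, which do not say what they share; deviations from group means correlated at 0.25 to 0.76 in 9 same-number pairs and at -0.68 to 0.54 in 18 others. The test was tried on simulated counts, and the outcome is not given here. The simulation gave all genes the same dispersion and both shRNA groups the same changes. The block was fitted only where a replicate effect had been simulated. It therefore cannot decide how well the pairing by number holds, or how differences between the shRNAs are called. Alternatives were DESeq2 1.42.0, limma-voom (limma 3.58.1), other scalings, no filter, a gene length correction, the groups compared alone, and fits without 1 library or without libraries numbered 1.

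Genes were named by rule: those past the threshold, the 3 highest and the lowest p in each class, and the heat-inducible, ER and mitochondrial lists; from the cochaperones, those past the threshold with HSF1, HSF2 and TCP1. This gave 41 members and 6 others. CCT7, CCT8, CCT6B, DNAJC2, DNAJC5B and the genes named for their count alone fall outside it and were named after their values were seen. The members and lists were chosen with earlier results of these data known. Counts give precision only as far as the 3 libraries per group allow. Some markers of other cell types are not reported here.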

Additional observations from a re-analysis of the deposited data

Results flagged for a closer look

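HSP90AB1 differed between the 2 shRNAs directed at the same gene. The log2 fold change of shRNA-146 against shRNA-143 with the replicate block was 0.866 ± 0.139 (edgeR, adjusted p = 0.0136), and the difference itself was what was tested. HSP90AB1 averaged 3123 ± 75 CPM with shRNA-146 and 1723 ± 222 CPM with shRNA-143 (SD, n = 3 each), with 3 of 3 same-number pairs in that direction. Without the block the adjusted p was 0.371 in edgeR and 0.000217 in DESeq2. The call with the block was kept in 5 of 9 fits that left out 1 library. It was lost without shRNA-143 replicate 1, 2 or 3 or shRNA-146 replicate 2 (edgeR, adjusted p up to 0.171).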

How the results depend on the processing

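All counts are chaperone genes called at an adjusted p under 0.05, of 71 unless the filter was dropped, for shRNA-143, shRNA-146, the mean of both shRNAs and shRNA-146 against shRNA-143 in that order. edgeR without the block gave 0 in each, and so did median-of-ratios scaling, library size scaling, no filter, limma-voom and the length correction; the groups compared alone gave 0 in the 3 comparisons where that fit exists. The replicate block gave 4, 2, 4 and 1, the block with library size scaling 3, 6, 6 and 2, and the block with the length correction 2, 2, 3 and 1. DESeq2 gave 2, 0, 1 and 1. Without all libraries numbered 1 the counts were 3, 3, 5 and 1, and 8, 6, 12 and 3 with the block. Leaving out 1 library gave 0 in every fit without the block; over the fits with and without it the ranges were 0 to 13, 0 to 5, 0 to 17 and 0 to 3, each highest with the block and without shRNA-146 replicate 1. Of 184 values of named genes, 78 changed sign in some of 30 alternatives, none of them while called, and no called value reversed. The causes of these moves were not tested. Of these fits, the share of all genes called was counted only for edgeR under TMM scaling on all 9 libraries, with and without the block. Counts from the other fits cannot be set against such a share and are not read as a result about chaperones. With 3 libraries per group and 4 to 6 residual degrees of freedom, edgeR called chaperones with all 9 libraries in the fits with the block and in none of those without it; genes under about 1 CPM, such as CCT6B and DNAJC28, have wide errors.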
